A study of Homo sapiens with 4 samples.

Results

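The 10 genes described here carry iron into the cell, store it, release it and export it, or sense how much of it is present. They were taken by symbol from a count table of 28278 genes, and all 10 symbols were listed. *TFRC*, *TFR2* and *SLC11A2* serve uptake, *FTH1* and *FTL* storage, *NCOA4* release from ferritin, *SLC40A1* export, and *IREB2*, *ACO1* and *FBXL5* sensing. After edgeR's filter on low counts, 15150 genes and 9 of the 10 iron genes could be tested, *SLC40A1* being too low.

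RNA-seq was carried out on HepG2 cells, a human hepatocellular carcinoma line, with 2 libraries per group. Control cells had been infected with lentivirus carrying Cas9 and a control sgRNA, and sgUSP22 cells with lentivirus carrying Cas9 and a sgRNA against *USP22*, a deubiquitinase of the SAGA complex. Both were stable, puromycin-selected populations rather than single clones, and both received 10 µM Sorafenib, a kinase inhibitor used against liver cancer, for 24 h. No library without Sorafenib was analysed here, so every comparison is between libraries labelled sgUSP22 and control libraries, all under the drug.

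Totals ranged from 62030307 to 64728272 counts per library. Replicates differed beyond counting noise (chi-square averaged over genes, 7.91 for the control pair and 8.44 for the sgUSP22 pair). The labels do not say whether replicates were separate cultures. The p-values set each difference between groups against variation estimated from these libraries and moderated across genes. That variation may be technical. For the *USP22* transcript, control libraries held 16450 and 16537 counts and libraries labelled sgUSP22 20279 and 20368, a log2 fold change of 0.22 (SE 0.034, edgeR adjusted p = 0.000394). It was therefore not lower under the knockout label, although gene counts cannot show an edit of a few bases, and every direction below follows the label. The paper checked its knockout cells by Western blot for USP22 protein, which gene counts do not measure. Of 16 hepatocyte marker genes, 9 were listed at 0 in all 4 libraries, *ALB*, *APOA1*, *APOB* and *TTR* among them, and the 16 together came to between 0.197 and 0.685 CPM (CPM being counts over the TMM-adjusted library size). HepG2 is known for making several of these liver proteins, so the labelled line's defining markers were absent or nearly so. The 5 epithelial markers summed to between 1756 and 1795 CPM in control libraries and between 1315 and 1373 CPM in libraries labelled sgUSP22. *CDH1* and *KRT19* were at 0 and *EPCAM* at no more than 4 counts, so nearly all of these sums came from *KRT8* and *KRT18*. The 7 mesenchymal markers summed to between 1708 and 1730 CPM over the 4 libraries, although *DCN*, a proteoglycan gene of fibroblasts, had 624 and 585 counts in control libraries against 5191 and 4996, and *LUM*, another, 4283 and 3743 counts against 11988 and 12071. In the same list *VIM* went the other way, with 65720 and 66580 counts in control libraries against 54526 and 52054, as did *PDGFRB* with 548 and 551 against 324 and 266. Summed CPM of the 5 neural markers, nearly all of it from *TUBB3*, lay between 7.73 and 11.5. For the 6 haematopoietic markers the sum was at most 0.122. In bulk RNA, a smaller number of cells of a type and less RNA per cell cannot be told apart. The part of these marker levels in the results below was not tested.

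Cells take up iron mostly as transferrin bound to the transferrin receptor, and SLC11A2 then moves the freed iron out of the endosome. Iron that is not used is held inside ferritin, a shell of FTH1 and FTL subunits, or leaves through ferroportin, the product of *SLC40A1*. When iron is scarce, the iron regulatory proteins IRP1 (*ACO1*) and IRP2 (*IREB2*) bind a stem-loop called the iron-responsive element (IRE). An IRE in the 5′ UTR, as in both ferritin mRNAs, lets the bound protein block translation, whereas the IREs in the 3′ UTR of *TFRC* protect the mRNA from decay. FBXL5 is the ubiquitin ligase subunit that marks IRP2 for degradation when iron is plentiful. An mRNA count can thus reflect the stabilising arm of this system, but it cannot tell that arm from a change in transcription. The translational arm does not show in it. The paper proposes that loss of USP22 raises transcription of *TFRC*, which was not tested here. Beside RNA-seq, its evidence includes RT-qPCR of *TFRC* and a Western blot of the protein. It also includes chromatin immunoprecipitation of USP22, ubiquitinated histone H2B and elongating RNA polymerase II downstream of the *TFRC* start site. None of those assays was analysed here.

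Matches to the IRE are printed because it is the element that the iron regulatory proteins recognise. They were found by a search of the annotated UTRs (GENCODE, hg38) for a bulged C, 5 stem bases, the loop CAGTGN and 5 stem bases that pair with the first 5, G-T pairs allowed. Each line gives 27 bases of the mRNA strand, 5′ to 3′, with T for U, and capitals mark the bulged C and the loop.
TFRC 3′ UTR, chr3:196050980-196051006, minus strand: attatCggaagCAGTGCcttccataat
TFRC 3′ UTR, chr3:196050576-196050602, minus strand: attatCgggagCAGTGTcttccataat
TFRC 3′ UTR, chr3:196050511-196050537, minus strand: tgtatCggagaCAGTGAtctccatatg
TFRC 3′ UTR, chr3:196050464-196050490, minus strand: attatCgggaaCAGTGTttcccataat
SLC11A2 3′ UTR, chr12:50988270-50988296, minus strand: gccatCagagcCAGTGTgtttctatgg
CDC14A 3′ UTR, chr1:100518584-100518610, plus strand: atttaCatgtaCAGTGTtacattatat
FTH1 5′ UTR, chr11:61967575-61967601, minus strand: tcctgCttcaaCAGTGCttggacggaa
FTL 5′ UTR, chr19:48965336-48965362, plus strand: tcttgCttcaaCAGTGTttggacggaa
SLC40A1 5′ UTR, chr2:189580662-189580688, minus strand: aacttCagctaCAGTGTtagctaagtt

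The 4 *TFRC* elements that the search found have all 5 stem pairs and lie in 10 of its 11 annotated coding transcripts. An element that departs from the searched pattern would be missed. The *SLC11A2* element has 4 of 5 pairs and lies in 4 of 17 coding transcripts, and the gene counts do not separate transcripts with the element from those without. A match with all 5 pairs was found in the 3′ UTR of the canonical transcript of 120 of 18749 genes (0.64%) and in the 5′ UTR of 19 of 18731 genes (0.101%). With 4 pairs allowed, 822 genes (4.38%) had a match in the 3′ UTR. At that looser level *IREB2* and *ACO1* also had 1 match each in the 3′ UTR. *TFR2*, *NCOA4* and *FBXL5* had no match, which says only that these letters are not in their annotated UTRs.

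Of the 9 tested iron genes, 5 rose and 2 fell in the libraries labelled sgUSP22 at an adjusted p below 0.05 (edgeR's quasi-likelihood test, with p-values adjusted over all tested genes after Benjamini and Hochberg). Of all tested genes, 26.8% passed in the higher direction, 25.8% in the lower and 52.5% in either. With the fold change of at least 1.5 that the study also required, 3 were called higher (*TFRC*, *IREB2* and *SLC11A2*) and 0 lower, against 8.88% and 7.25% of all tested genes. DESeq2 gave the same counts of 3 and 0, and at an unadjusted p below 0.05 with no fold required the lower genes in edgeR were *TFR2* and *NCOA4*. The groups did not overlap for any of the 9 genes, 6 higher and 3 lower, and the same held for 75.9% of all tested genes, 38.3% higher and 37.6% lower. The median log2 fold change of the 9 genes was 0.28, against 0.00091 over all tested genes. These counts describe genes of unlike direction, and no single shift covered the group.

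**Figure D1:**
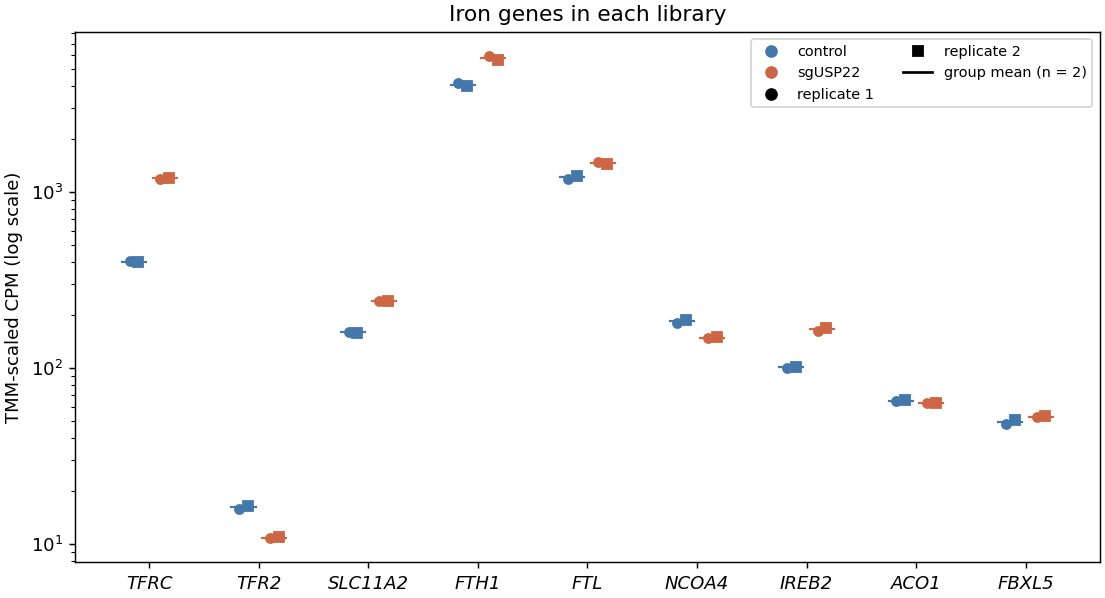
CPM scaled by TMM factors (log axis) of the 9 tested iron genes in each library, with control libraries in blue, libraries labelled sgUSP22 in orange, circles for replicate 1, squares for replicate 2 and lines for group means (n = 2). *TFRC* moved from about 403 to 1202 CPM, and for every gene the 2 libraries of a group lie close together (CPM is not divided by length, so heights are to be compared within a gene only).

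Per length, the ferritin mRNAs stood far above the rest. In RPKM, that is CPM divided by the length in kilobases of the canonical GENCODE transcript, *FTH1* had a mean of 3405 in control libraries and *FTL* 1393, followed by *TFRC* at 80.4, *NCOA4* at 53.2 and *SLC11A2* at 38.5. Lower still were *IREB2* at 16.0, *FBXL5* at 14.2, *ACO1* at 8.74 and *TFR2* at 5.60 RPKM. No neighbours in this order overlapped in their control libraries. In the libraries labelled sgUSP22 the order was the same except for 1 exchange, with *SLC11A2* at 58.1 RPKM now above *NCOA4* at 43.0 RPKM. These levels rest on 1 transcript length per gene, while the annotation behind the counts is not given in the sources used here.

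Of the uptake genes, *TFRC* changed most. The gene encodes transferrin receptor 1 and lies on the minus strand of chr3:196012511-196082153 (hg38). It had 405 and 401 CPM in the control libraries and 1196 and 1207 CPM in the libraries labelled sgUSP22. Every ratio of a knockout-labelled to a control library lay between 2.96 and 3.01. The log2 fold change of 1.58 (SE 0.030, 95% interval 1.51 to 1.64, edgeR adjusted p = 8.9e-10) lay above that of 97.7% of tested genes. Among the 6521 other genes averaging 5 log2 CPM or more, 10 had a larger increase. The genes whose profile over the 4 libraries was nearest to that of *TFRC*, by Euclidean distance of centred log2 CPM, were *KYNU* (0.0722), *HR* (0.107), *SLC2A13* (0.112), *DAPK1* (0.125) and *FBN2* (0.136). With 4 libraries in 2 groups, this distance mainly compares fold changes, and these 5 genes had log2 fold changes of 1.53, 1.48, 1.57, 1.46 and 1.48.

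*SLC11A2* encodes DMT1, the divalent metal transporter of the endosome and the gut, and lies on the minus strand of chr12:50979401-51028566. It had 161 and 157 CPM in control libraries and 239 and 241 CPM in libraries labelled sgUSP22. The 2 groups were clearly apart, and the log2 fold change was 0.59 (SE 0.035, edgeR adjusted p = 9.14e-07). This is 1.51-fold, just past the threshold. The log2 fold change was 0.58, below the threshold, without control replicate 2, and 0.50 once trends with GC content and transcript length were removed from each library. It was much smaller than that of *TFRC*, and the 95% intervals did not meet (0.52 to 0.67 against 1.51 to 1.64). Per length, *TFRC* stood 2.07- and 2.10-fold above *SLC11A2* in the control libraries and 4.12- and 4.13-fold above it in the others.

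*TFR2* encodes transferrin receptor 2, a homologue of the first receptor that in hepatocytes takes part in sensing transferrin iron. It lies on the minus strand of chr7:100620416-100642779. Its counts were 966 and 1027 in control libraries and 709 and 701 in libraries labelled sgUSP22, or 15.8 and 16.5 against 10.8 and 10.9 CPM. It thus fell where *TFRC* rose, with a log2 fold change of -0.58 (SE 0.092, edgeR adjusted p = 0.000505). At 1.49-fold lower it missed the 1.5-fold threshold narrowly, and it passed when control replicate 1 (-0.61) or sgUSP22 replicate 1 (-0.59) was left out. The ratio of *TFRC* to *TFR2* per length was 14.7 and 14.0 in control libraries and 63.8 and 64.0 in the others.

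Both ferritin mRNAs rose. *FTH1* encodes the heavy chain, which oxidises ferrous iron, and lies on the minus strand of chr11:61959718-61967634. It had 4180 and 4014 CPM in control libraries and 5929 and 5682 CPM in libraries labelled sgUSP22, a log2 fold change of 0.50 (SE 0.030, edgeR adjusted p = 8.51e-07). *FTL* encodes the light chain, which favours the forming of the iron core, and lies on the plus strand of chr19:48965309-48966879. It had 1191 and 1236 CPM in control libraries and 1486 and 1455 CPM in the others, a log2 fold change of 0.28 (SE 0.030, edgeR adjusted p = 4.55e-05). Neither reached 1.5-fold. Their 95% intervals did not meet (0.44 to 0.57 for *FTH1* and 0.21 to 0.35 for *FTL*). The ratio of *FTH1* to *FTL* per length was 2.54 and 2.35 in control libraries and 2.89 and 2.83 in the others, so the heavy chain gained on the light chain at the mRNA level. With GC and length trends removed the log2 fold changes were 0.61 and 0.47, and *FTH1* then passed the 1.5-fold threshold.

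Ferritin counts carry a further uncertainty. The annotation holds 25 pseudogenes named for *FTH1* and 16 for *FTL*, of which the count table lists 1 each, *FTH1P3* with 2 to 11 counts and *FTLP10* with 0. How the authors' counting placed reads that match several copies is not given in the sources used here. Exons of *FTH1* also overlap those of *BEST1* on the opposite strand. The strand setting is not given either, but *BEST1* had 486 to 719 counts where *FTH1* had at least 250387.

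*NCOA4*, the receptor that carries ferritin to autophagy and so frees its iron, fell. The gene lies on the minus strand of chr10:46005088-46030623. It had 180 and 188 CPM in control libraries and 149 CPM in both libraries labelled sgUSP22, a log2 fold change of -0.31 (SE 0.038, edgeR adjusted p = 9.87e-05). The change was larger than the spread between replicates but under 1.5-fold. It ran opposite to that of both ferritin mRNAs. The annotation holds 4 pseudogenes named for *NCOA4*, of which the count table lists 0, so the uncertainty over shared reads applies here too. *HERC2*, the ubiquitin ligase that targets NCOA4 protein, had a log2 fold change of 0.29 (SE 0.038, edgeR adjusted p = 0.000152), also under 1.5-fold. Any link between it and the *NCOA4* mRNA was not tested.

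For export no change could be measured. *SLC40A1*, on the minus strand of chr2:189560590-189583758, encodes ferroportin. It was listed at 0 in both control libraries and at 3 and 0 counts in the libraries labelled sgUSP22. At this depth 0 counts allow up to 3 counts, or between 0.0457 and 0.0492 CPM, so all 4 libraries were at or under the floor and no fold change is given. The floor covers counting error only.

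**Figure D2:**
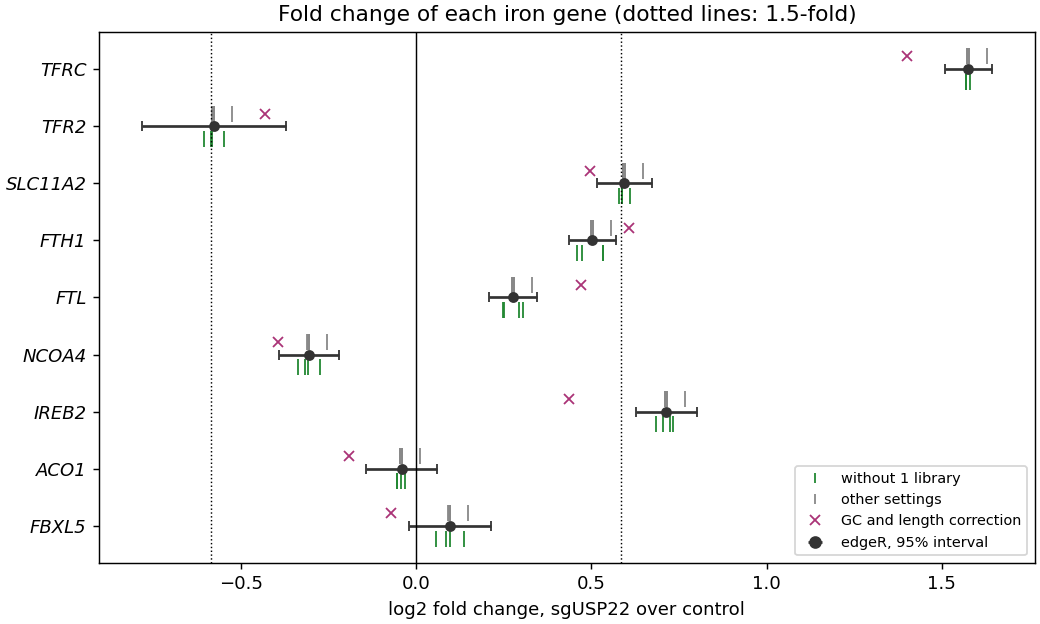
Log2 fold change of each tested iron gene (libraries labelled sgUSP22 over control libraries) with its 95% interval, and the values without 1 library (green ticks), under other settings (grey ticks) and with GC and length trends removed (crosses); dotted lines mark 1.5-fold. *TFRC* lies at 1.58, clear of every other gene, while *SLC11A2* and *TFR2* sit on either 1.5-fold line and *ACO1* and *FBXL5* span 0.

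The sensors split. *IREB2*, which encodes IRP2, lies on the plus strand of chr15:78437431-78501453. It had 100 and 102 CPM in control libraries and 162 and 169 CPM in libraries labelled sgUSP22, and so rose 1.64-fold, a log2 fold change of 0.71 (SE 0.039, edgeR adjusted p = 6.07e-07). *ACO1* encodes IRP1, which serves as cytosolic aconitase when it holds an iron-sulphur cluster, and lies on the plus strand of chr9:32384603-32454769. It had 64.6 and 65.6 CPM in control libraries and 63.2 CPM in both of the others. The difference of -0.042 did not pass the test (95% interval -0.14 to 0.058, edgeR adjusted p = 0.47). *FBXL5*, on the minus strand of chr4:15604381-15681679, had 48.0 and 50.8 CPM in control libraries and 52.4 and 53.2 CPM in the others. Its log2 fold change of 0.096 did not pass either (95% interval -0.020 to 0.21, edgeR adjusted p = 0.149). The ratio of *IREB2* to *ACO1* per length went from 1.83 in both control libraries to 3.02 and 3.15.

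The call for *IREB2* depended on the processing. The gene has a canonical transcript of 6324 bases with 38.2% GC, the lowest GC content of the 10 genes. With GC and length trends removed its log2 fold change was 0.44 (edgeR adjusted p = 7.79e-06), still higher but below 1.5-fold. *ACO1*, with the longest transcript of the 10 at 7443 bases, had -0.19 in that setting (edgeR adjusted p = 0.00475), and *FBXL5* had -0.070.

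**Figure D3:**
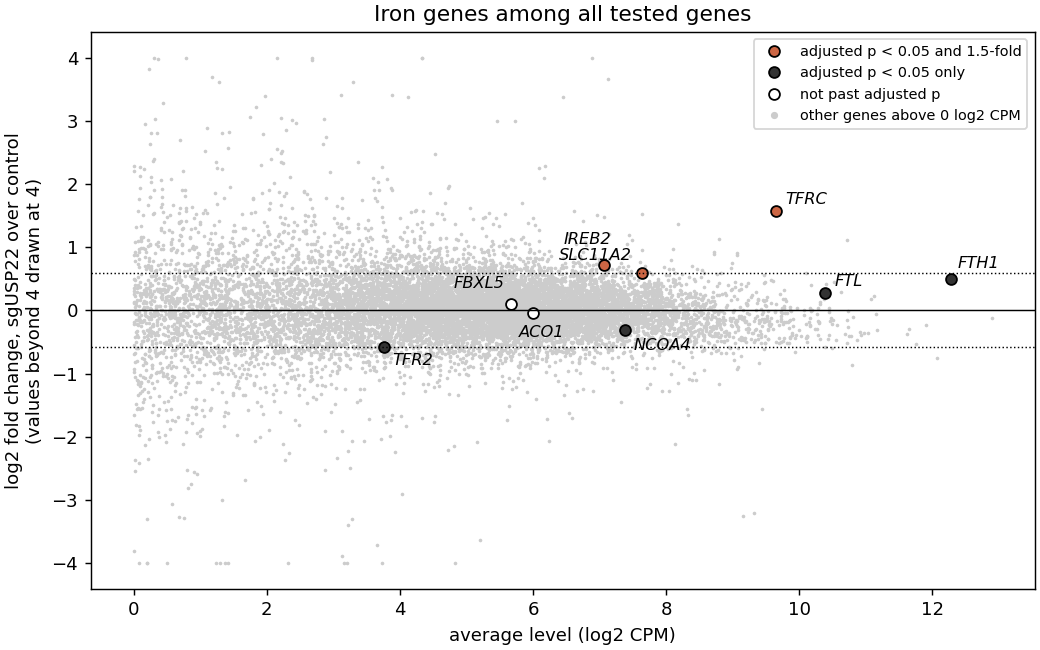
Log2 fold change against average level for all tested genes above 0 log2 CPM (grey), with the 9 iron genes marked in orange where called at both thresholds, in black where past the adjusted p alone and in white otherwise. *TFRC* at 9.65 log2 CPM and a log2 fold change of 1.58 lies apart from genes of like abundance, and *FTH1* at 12.3 log2 CPM is among the most abundant genes.

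The next comparison asked whether other mRNAs with a known IRE moved with *TFRC*. Of 5 mRNAs listed as having the element in the 3′ UTR, 4 rose and 1 fell, and 3 were called higher at both thresholds. The shares over all tested genes were 26.8%, 25.8% and 8.88%, and the list is too short to read more from its count. Beside *TFRC* and *SLC11A2* the list holds *CDC14A*, a cell cycle phosphatase, with 385 and 501 counts in control libraries and 657 and 762 counts in the others. Its log2 fold change was 0.60 (SE 0.14, edgeR adjusted p = 0.00562). At this low level replicates spread widely, and the value was 0.44 without control replicate 1 and 0.48 without sgUSP22 replicate 2, in both cases below 1.5-fold, as was the 0.45 found with GC and length trends removed. *CDC42BPA*, a kinase of the cytoskeleton, had a log2 fold change of 0.26 (SE 0.043, edgeR adjusted p = 0.000773), which came to 0.037 with GC and length trends removed and no longer passed. *PFN2*, which encodes the actin-binding profilin 2, fell from 214 and 219 CPM to 181 CPM in both libraries labelled sgUSP22 (log2 fold change -0.26, SE 0.035, edgeR adjusted p = 0.000186). The search found no element in the annotated UTRs of *CDC42BPA* and *PFN2*, nor in those of *EPAS1* in the next list, so these 3 are listed from textbook knowledge alone.

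Of 6 mRNAs listed as having the element in the 5′ UTR, 4 could be tested, of which 2 rose and 1 fell, and all 4 stayed under 1.5-fold. With 52.5% of all tested genes passing in either direction (26.8% higher and 25.8% lower), 3 of 4 is no result about the list. The 2 that rose were the ferritin mRNAs. *EPAS1*, the hypoxia-inducible factor HIF2α, fell slightly, from 249 and 242 CPM to 223 and 218 CPM (log2 fold change -0.16, SE 0.035, edgeR adjusted p = 0.00404). *SLC40A1* and *ALAS2*, the erythroid enzyme of haem synthesis, were at 3 counts or fewer in every library. The log2 fold change of *TFRC* (1.58) thus stood well above the next of these 9 tested mRNAs, *CDC14A* (0.60), while *PFN2* and *EPAS1* moved the other way. The list comes from textbook knowledge, and both parts of it share members with the 10 iron genes.

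The search also gave a set chosen by sequence alone. Of the 102 tested genes whose 3′ UTR held a match with all 5 stem pairs, 42 passed in the higher and 24 in the lower direction, and 12 and 7 were called at both thresholds. Their median log2 fold change was 0.059. Among all tested genes the median was 0.00091, with 26.8% higher and 25.8% lower. At both thresholds 8.88% and 7.25% of all tested genes were called higher and lower. *TFRC* itself is 1 of the 102. The set was not read with GC and length trends removed, so the part of those trends in its counts was not tested.

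The genes around each iron gene gave a background on the chromosome. Neighbours were taken by order, whatever their distance. Their starts spanned 460 kb around *TFR2* but 9445 kb around *FBXL5* and 10801 kb around *ACO1*, so the background is not equally local. *TFRC* stood above all 20 of its nearest tested neighbours, 10 on either side, whose median log2 fold change was 0.11. Of the 5 nearest on either side, *SDHAP2* (0.77) and *TM4SF19* (-1.04) were called at both thresholds, and *PCYT1A* (0.31), *UBXN7* (0.53), *SDHAP1* (0.58), *PPP1R2* (0.16) and *ACAP2* (0.13) passed the adjusted p alone in the higher direction. *SDHAP1* and *SDHAP2* are pseudogenes of *SDHA*, so their reads may be shared with it. *TNK2*, *RNF168* and *TM4SF19-AS1* did not pass, with log2 fold changes of -0.042, 0.073 and -0.79.

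*FTH1* likewise stood above all 20 of its neighbours, whose median was -0.12. *NCOA4* did not stand apart. Its 20 neighbours had a median log2 fold change of -0.36, close to its own -0.31. Several of them carry the names of pseudogenes, so their reads may be shared with other copies. Of these neighbours 17 had a value below 0 and 7 passed the test as lower, and the part of the region in the fall of *NCOA4* was not tested. *IREB2* lay above 18 and *SLC11A2* above 17 of their 20 neighbours, with medians of 0.0092 and -0.076. *TFR2* lay above 2 of its 20, which had a median of -0.051. The medians around *FTL*, *ACO1* and *FBXL5* were -0.13, 0.26 and -0.061.

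**Figure D4:**
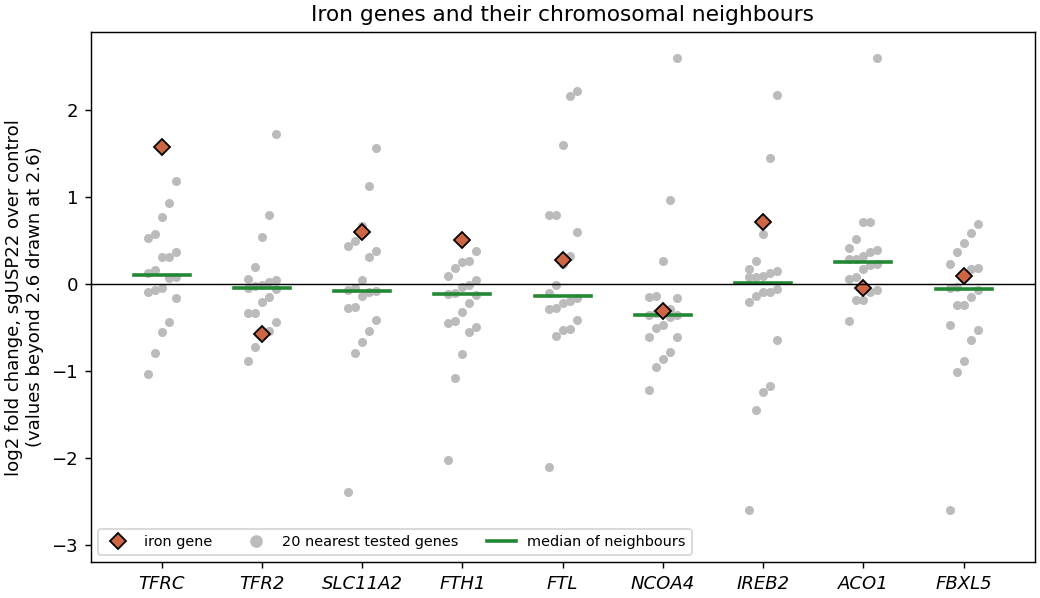
Log2 fold change of each tested iron gene (diamond) and of its 20 nearest tested genes by gene start, 10 on either side (grey points, values beyond 2.6 drawn at 2.6), with their median (green line). *TFRC* and *FTH1* lie above all of their neighbours, and *NCOA4* lies near the median of its neighbours, -0.36.

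Other genes of iron handling were read from lists written with earlier results of these data known. Of 64 such genes, 55 were tested, 15 rose and 15 fell, and 5 were called higher and 2 lower at both thresholds. Of all tested genes 26.8% rose, 25.8% fell, and 8.88% and 7.25% were called higher and lower, so the counts that rose, fell and were called higher lay near these shares. The median log2 fold change of the 55 was -0.032, with 24 values above 0 and 31 below. Of the hepcidin axis, *HAMP*, which encodes hepcidin, and *HJV* were at 0 in all 4 libraries and *TMPRSS6* at no more than 9 counts. *TF*, which encodes transferrin itself and is among the hepatocyte markers that were absent or nearly so, had at most 13 counts. *BMP6*, an inducer of hepcidin, was not low, with 83.7 and 90.3 CPM in control libraries and 104 and 99.2 CPM in the others. It rose slightly (log2 fold change 0.22, SE 0.048, edgeR adjusted p = 0.00346).

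Uptake outside the transferrin cycle was raised for some carriers. *SLC39A8*, which encodes the zinc and iron importer ZIP8, rose from 44.7 and 44.5 CPM to 79.1 and 78.9 CPM (log2 fold change 0.82, SE 0.045, edgeR adjusted p = 6.02e-07). *SCARA5*, a ferritin receptor, had the largest change of these lists, from 3.95 and 5.15 CPM to 21.8 and 22.0 CPM. *SLC39A14*, which encodes ZIP14, had a log2 fold change of 0.065 that did not pass. In the transferrin cycle the ferric reductase genes *STEAP3* and *STEAP4* fell, with log2 fold changes of -0.28 and -0.29, and *HFE*, whose product binds the transferrin receptor, rose by 0.31. All 3 stayed under 1.5-fold.

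Both mitoferrin mRNAs, which encode the iron importers of the mitochondrion, fell. *SLC25A37* had 135 and 136 CPM in control libraries and 79.5 and 88.0 CPM in the others (log2 fold change -0.69, SE 0.050, edgeR adjusted p = 2.96e-06). *SLC25A28* had a log2 fold change of -0.57 (SE 0.080), under 1.5-fold. Among the 8 genes of haem synthesis, *UROS* was called lower (log2 fold change -0.90, SE 0.062, edgeR adjusted p = 2.2e-06), *UROD* fell by 0.29 and *ALAS1* rose by 0.23, while 5 did not pass. *SLC25A28* and *UROS* lie on chromosome 10, as does *NCOA4*, and were not compared with their neighbours. The part of the chromosome in their lower counts was not tested.

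Haem carriers of the cell surface were higher. *FLVCR1* (log2 fold change 0.63), *FLVCR2* (0.97) and *ABCG2* (0.77) were called higher, of which *FLVCR1* was under 1.5-fold without sgUSP22 replicate 2 (0.50) and both *FLVCR1* (0.47) and *ABCG2* (0.58) with GC and length trends removed. The haem importer *SLC48A1* fell (-0.44). *HMOX1*, haem oxygenase 1, which frees iron from haem, fell slightly (-0.25, SE 0.082, edgeR adjusted p = 0.0274). Of 18 genes of iron-sulphur cluster assembly, 4 rose, 5 fell and 9 did not pass, with log2 fold changes from -0.34 to 0.37, all under 1.5-fold. That 9 of 18 passed is close to the 52.5% of all tested genes.

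**Figure D5:**
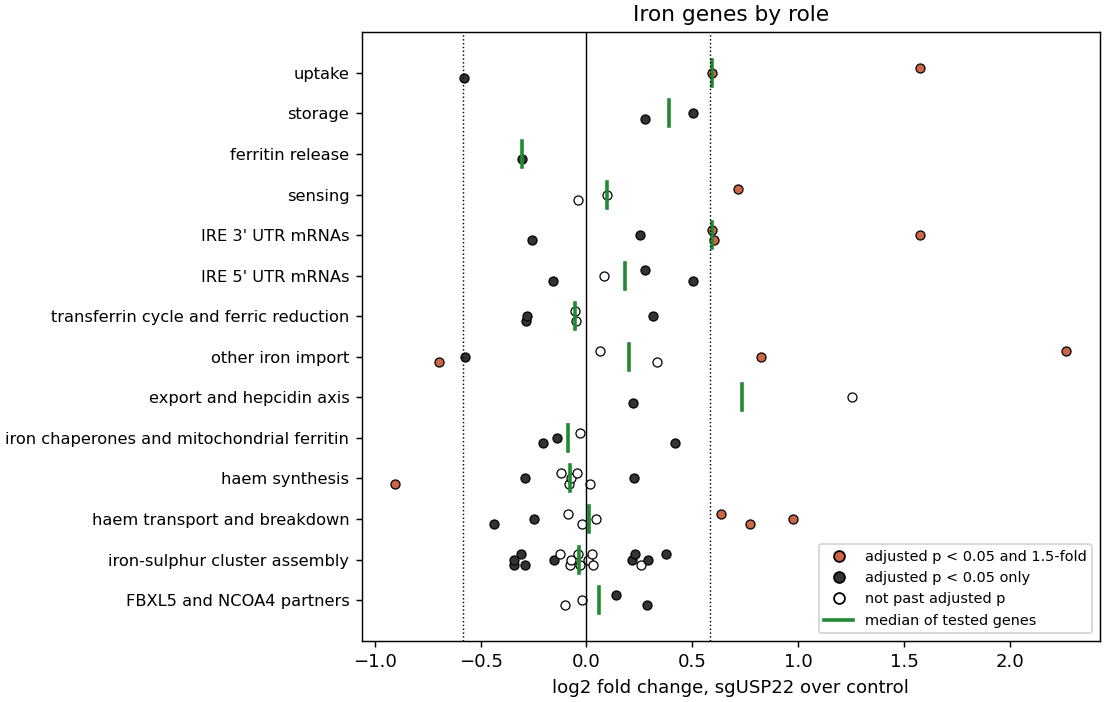
Log2 fold change of every tested gene by role, coloured as called at both thresholds (orange), past the adjusted p alone (black) or not past it (white), with the median of each list (green bar) and 1.5-fold (dotted lines). The 3′ UTR IRE list lies mostly to the right with *TFRC* at 1.58, and iron-sulphur cluster genes stay between -0.34 and 0.37.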

How the data were processed

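RNA-seq counts of 4 libraries were analysed. Per the paper's methods and the submitters' processing notes, the authors aligned reads to hg38 with HISAT2 2.2.1 and deposited whole-number gene counts from StringTie 2.2.1, which derives them from coverage, not divided by library size. The annotation, strand setting and read length are not given in the sources used here. Columns were matched to samples by name, with 0 left over.

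The test was edgeR 4.0.16 in R 4.3.3, with TMM scaling, filterByExpr at min.count 10, glmQLFit and glmQLFTest, and Benjamini-Hochberg adjustment over 15150 genes. Standard errors were taken from the F statistic and the log2 fold change. Genes were called at an adjusted p below 0.05 and a fold of at least 1.5. CPM values use TMM-scaled library sizes. Of 28278 symbols, 25763 matched GENCODE, and 94.9% of tested genes had a position. Procedures were tested on simulated data. Members and lists were chosen with earlier results of these data known. Named genes were the 10 members, both IRE lists (1 gene is counted but not reported here by name), the wider genes called at both thresholds with at least 1 log2 CPM, the 5 genes most like *TFRC*, its 5 neighbours on either side, and *USP22*. Other wider genes, and the genes whose reads could mix with the ferritin genes, were named as examples after their values were seen. Alternatives were DESeq2 1.42.0, scaling by RLE or by library size alone, the low-count filter left out or set to a mean of 50 counts, a replicate block, removal of GC and length trends (lowess, span 0.3), and leaving out each library.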

Additional observations from a re-analysis of the deposited data

How the results depend on the processing

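Over 22 genes and 12 other settings, 252 of 264 values kept their direction and their side of an adjusted p of 0.05, and *TFRC* did so in all 12, between 1.40 and 1.63. *ACO1* turned from -0.042 to 0.010 with library size alone, which raised the median of all genes by 0.052. *FBXL5* turned from 0.096 to -0.070 with GC and length trends removed, without and with the replicate block. The cause was not tested. In that setting *FTH1* (0.61) replaced *SLC11A2* (0.50) and *IREB2* (0.44) among the genes past 1.5-fold, so 2 iron genes were called higher in place of 3. Without 1 library, between 2 and 3 were called higher and between 0 and 1 lower, *TFR2* being the 1, and a lone library was assumed to vary like the other group. The replicate numbers share no stated batch, and deviations of same-numbered libraries correlated at 0.17 across genes. With the replicate block *TFRC* had 1.58, 3 iron genes were called higher and 0 lower, and 1341 and 1100 of all genes were called against 1345 and 1098. Depth limits *SLC40A1*, *ALAS2* and the 9 wider genes too low to test or at 0, and in part *CDC14A* and *CP* (4 to 12 counts, SE 0.85).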

Other observations

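Of 12 tested genes whose canonical 5′ UTR held an IRE match with all 5 stem pairs, 5 were higher and 1 lower at an adjusted p below 0.05 (edgeR, adjusted over all tested genes), with a median log2 fold change of 0.21. Over all tested genes 26.8% were higher, 25.8% lower and 8.88% called higher at both thresholds, and the median was 0.00091. The 5 include both ferritin genes. The other 3 were called higher at both thresholds and were named after their values were seen: *CHRNA10*, a subunit of the nicotinic acetylcholine receptor (log2 fold change 2.19, SE 0.43), *ENC1*, an actin-binding kelch protein (0.95, SE 0.14), and the zinc finger gene *ZNF782* (0.95, SE 0.24). Whether the iron regulatory proteins bind these mRNAs was not tested, and the set was not read with GC and length trends removed.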
